A study of Capitella teleta with 10 samples.

Results

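Chromatin accessibility of whole Capitella teleta was compared between the gastrula and stage 4tt, an early larva that follows gastrulation. Capitella teleta is a segmented marine worm whose larva does not feed. The comparison takes 4 of the 10 ATAC-seq libraries of a series over 5 stages, with 2 libraries per stage, and all 46409 consensus peaks of its table on 5551 scaffolds. Each library came from about 50000 cells, pooled from about 200 gastrulae or about 120 larvae. No treatment or strain is named in the labels for these stages, and their growth protocol is written for a different annelid, Owenia fusiformis. Both stages were sequenced in the same batch, with the 64-cell embryo, while the stage 5 and stage 8 larvae used below for the later course formed another batch. The study calls the 2 libraries of a stage biological replicates, but the labels do not say whether they came from separate broods. The p-values rest on the spread between replicate libraries, estimated over all 10 libraries of the 5 stages. That spread may be partly technical.

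ATAC-seq uses a transposase that cuts and tags DNA where it is not covered by nucleosomes. Regions with many cuts, called as peaks, are mostly promoters at gene starts and enhancers, the switches that set where and when genes are used. Such regions open or close as transcription factors bind or leave and as cell types form. In an animal sampled whole, a change in the share of cells with an open region and a change within cells cannot be told apart. Gastrulation sorts the germ layers, and the body of the larva then takes shape, which makes the step to stage 4tt the step from laying out the germ layers to building organs. Peaks are given here by their number in the table, scaffold, start and end. No genes were assigned to them, since no annotation on these scaffolds was used here. For the same reason the stage labels were not checked against marker genes.

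Recovered read totals over all consensus peaks were 22916275 and 24727049 in the gastrula libraries and 27309620 and 25471601 at stage 4tt. The median peak held 200 and 207 reads in the gastrula and 253 and 234 at stage 4tt. Replicate libraries were not copies of each other: over peaks with at least 20 reads, chi-square divided by its degrees of freedom was 5.22 for the gastrula pair and 4.12 for the stage 4tt pair, where sampling alone gives about 1. Across peaks the median absolute log2 difference was 0.17 between the gastrula libraries and 0.14 between the stage 4tt libraries, against 0.33 between the stage means.

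More peaks opened than closed, but the closed peaks had the larger median change, a gap seen mainly among the weakest peaks, as described below. In all, 10092 peaks opened, which is 21.7% of those tested, and 6839 closed, which is 14.7% (limma, adjusted p under 0.05), so 36.5% were called. The median log2 change was 0.64 among the opened peaks, with quartiles of 0.45 and 0.89, and −0.71 among the closed, with quartiles of −1.19 and −0.47. An absolute log2 change of 1 or more was reached by 18.9% of the opened and 32.5% of the closed peaks. That order of counts was therefore the reverse at this size, with 1911 opened (4.12% of all peaks) and 2223 closed (4.79%), or 8.91% in either direction. At a change of 2 or more the counts were 195 opened and 729 closed of all 46409 peaks. Small changes were common in both directions, since 32.0% of the opened and 29.6% of the closed peaks changed by less than 0.5. Both libraries of 1 stage lay above both of the other in 99.98% of the opened and 99.93% of the closed peaks, against 67.3% of all peaks, 38.6% with stage 4tt higher and 28.7% with it lower. The calls rest on the values of these same libraries, so shares near 100% come with a call and add no separate evidence.

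The surplus of opened peaks depended on how the libraries were scaled. It was also absent among consensus peaks that lay in the separate peak lists of all 4 libraries, as given below. The median peak rose by a log2 change of 0.05 in the scaling of the authors. With TMM factors, which set the bulk of the peaks level, 8311 peaks opened (17.9%) and 8403 closed (18.1%), together 36% of all, so that the share of opened among called peaks was 49.7% in place of 59.6%. It was 52.3% after quantile normalization. 

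The size of the change and its direction followed the strength of a peak, taken as the mean of log2(value + 1) over the 10 libraries. The weakest quintile of peaks, with a median of 36.6 units, mostly moved down. Of its 9282 peaks, 17.3% closed and 7.16% opened, and the median log2 change was −0.30. In each of the other 4 quintiles more peaks opened than closed, but with TMM factors 20.3% of the strongest quintile opened and 21.9% closed. The opened share was 23.9%, 26.0%, 24.3% and 27.5% from the second to the strongest quintile, and the closed share 11.9%, 13.3%, 14.6% and 16.6%.

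The spread of changes narrowed with strength. The middle 50% of peaks lay between −1.07 and 0.24 in the weakest quintile and between −0.13 and 0.25 in the strongest. A change of 1 or more in either direction was measured at 34.2% of the weakest peaks and 1.65% of the strongest, called or not. Opened peaks of the weakest quintile had a median change of 1.18 and those of the strongest 0.38, while closed peaks had medians of −1.81 and −0.40. From the second to the fourth quintile the medians were 0.82, 0.68 and 0.56 for opened and −0.84, −0.65 and −0.53 for closed peaks. Closed peaks thus changed clearly more than opened peaks only in the weakest quintile. The replicates narrowed as well. Their median absolute difference fell from 0.45 to 0.08 in the gastrula and from 0.38 to 0.07 at stage 4tt from the weakest to the strongest quintile, so the smallest change that could be called differed between them. The median weak peak held only 15 to 23 reads per library, against 1089.5 to 1355 in the strongest quintile. When strength was taken from the 6 libraries of the other stages, 6.68% of the weakest quintile opened and 19.0% closed, against 30.4% and 15.3% of the strongest.

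**Figure D1:**
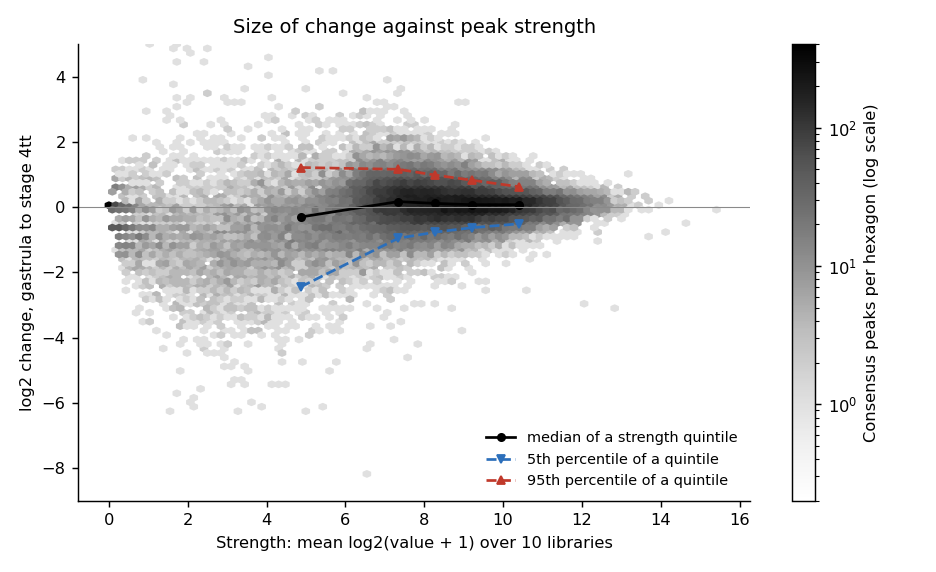
Log2 change from gastrula to stage 4tt (vertical axis) against strength, the mean log2(value + 1) over 10 libraries (horizontal axis), for 46409 consensus peaks. Shading gives peaks per hexagon on a log scale, circles mark the median and triangles the 5th and 95th percentiles of each strength quintile. The weakest quintile reaches from −2.44 to 1.21 between these percentiles and the strongest from −0.51 to 0.62.

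Wide peaks were called more often in both directions. In the narrowest quintile, of 101 to 427 bp, 17.0% opened and 12.4% closed. In the widest, of 1347 to 5828 bp, 29.7% opened and 18.0% closed. Wide peaks are also strong, with a median of 1062 units against 119 in the narrowest quintile, so both measures were crossed. Among weak peaks, width went with closing. In the weakest strength quintile the closed share rose with every step of width, from 11.3% of the 4353 narrowest to 33.5% of the 343 widest, while the opened share fell from 11.5% to 1.17%. In the second strength quintile 33.5% of the 266 widest peaks closed and 3.76% opened. Higher up, width went with opening. In the fourth strength quintile 36.7% of the 2583 widest peaks opened and 12.1% closed, against 12.0% and 23.1% of the 225 narrowest. The strongest quintile did not follow the fourth in its closed share. There 29.3% of the 5438 widest peaks opened and 19.1% closed, against 22.7% and 15.9% of the 176 in the second width quintile, and only 15 of its peaks were in the narrowest. A peak that is wide for its strength has a low value per base, and the values are not scaled by width.

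Spacing separated peaks in a further way. The 3369 peaks that were alone on their scaffold mostly moved down. Of these, 19.7% closed and 6.92% opened, with a median change of −0.32. They were weak, with a median of 46.5 units. At equal strength they closed more often than the other classes of spacing in the weakest 3 quintiles, but not in the fourth, with 14.1% of 135 closed against 7.43% to 19.8%, nor in the strongest, with 20.3% of 64 against 2.73% to 25.4%. In the middle strength quintile 24.7% of the 283 lone peaks closed and 17.3% opened, while in the 4 other classes of spacing of that quintile between 10.3% and 16.2% closed and between 25.1% and 26.9% opened. Without these lone peaks 9859 peaks opened and 6174 closed, and in the weakest strength quintile 8.50% opened and 16.6% closed.

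Among strong peaks that shared a scaffold, closing went with crowding. In the strongest quintile 25.4% of the 1360 peaks with a neighbour within 500 bp closed. The share was 20.1% at a gap of 500 to 2000 bp, 9.83% at 2000 to 10000 bp and 2.73% of the 110 peaks at 10000 bp or more. The opened share lay between 26.2% and 29.1% over the same classes. The fourth strength quintile had the same order of closing, from 19.8% within 500 bp to 7.43% at 10000 bp or more. The weakest quintile did not, since 12.9% of its peaks with a neighbour within 500 bp closed and 17.1% of those at 10000 bp or more.

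**Figure D2:**
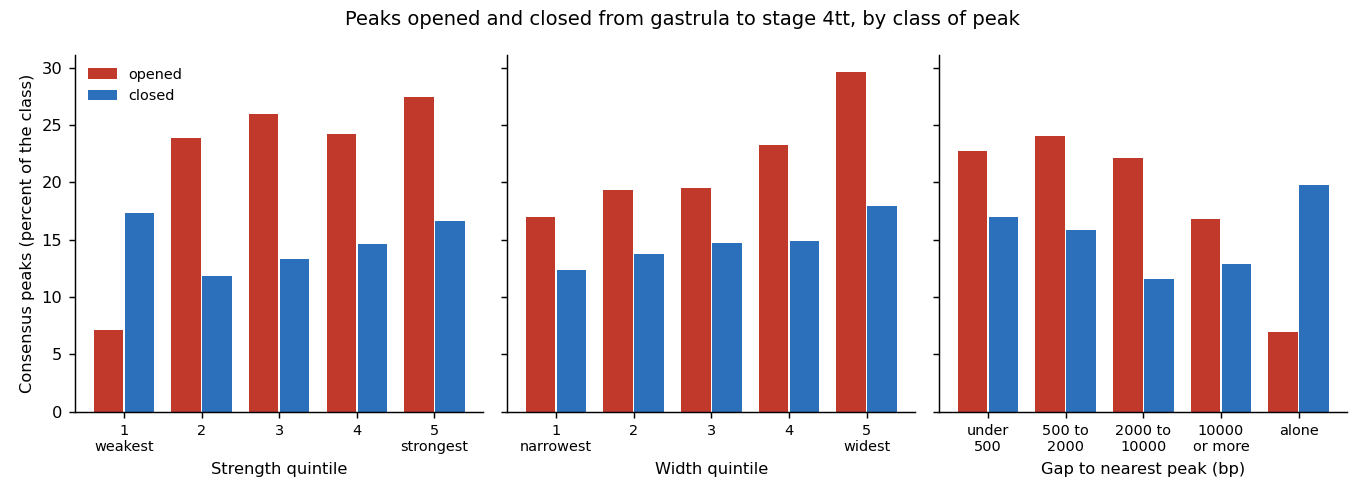
Percent of consensus peaks opened (red) and closed (blue) from gastrula to stage 4tt in the quintiles of strength (left) and width (middle) and in classes of the gap in bp between a peak and its nearest neighbour on the scaffold (right). The weakest quintile and the peaks alone on their scaffold had more closed than opened peaks in the authors' scaling, 17.3% against 7.16% and 19.7% against 6.92%, and with TMM factors so did the strongest quintile, gaps under 500 bp (21.1% against 18.9%) and gaps of 10000 bp or more (15.3% against 14.2%).

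Neighbouring peaks moved together, and the more so the closer they lay. Of 1492 pairs of neighbours under 200 bp apart, 67.2% changed in the same direction, called or not. The share fell with every class of gap, to 58.6% of 13127 pairs at 2000 to 5000 bp and 52.4% of 965 pairs at 20000 bp or more. Pearson's r of the log2 changes across pairs, which share libraries and are not independent, was 0.48 in the closest class and 0.09 in the farthest. Where both peaks were called, 85.6% of 270 pairs in the closest class and 57.1% of 105 pairs in the farthest had the same direction. After an opened peak, the next one had also opened in 43.8% of cases under 200 bp and in 20.4% at 20000 bp or more, where 21.7% of all peaks opened. For closed peaks these shares were 35.6% and 17.7%, beside 14.7% of all peaks. With TMM factors the share of all pairs in the same direction ran from 66.5% to 51.6%. Pairs were not compared at equal strength. Peaks with their nearest neighbour at 10000 bp or more had a median of 158 units, against 338 units under 500 bp. Their median absolute log2 difference between the gastrula libraries was 0.27, against 0.17.

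**Figure D3:**
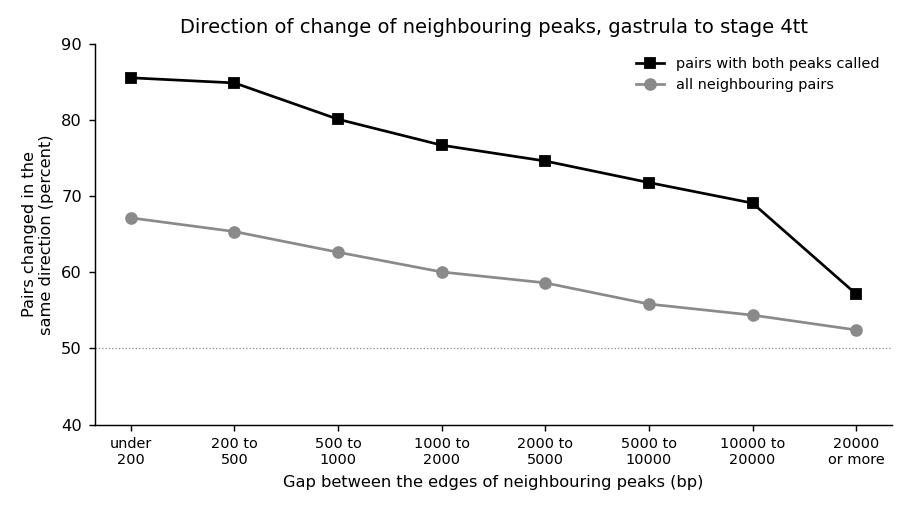
Percent of neighbouring consensus peaks that changed in the same direction from gastrula to stage 4tt (vertical axis, drawn from 40 to 90) by the gap between their edges in bp (horizontal axis). Squares are pairs with both peaks called and circles all pairs, and the dotted line marks 50%. Both fall from the closest to the farthest class, from 85.6% to 57.1% and from 67.2% to 52.4%.

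Some of these neighbours formed runs, taken as 3 or more consecutive peaks that all opened or all closed with gaps of at most 5000 bp. There were 552 runs of opened peaks, which held 1922 peaks or 19.0% of those that opened, and 251 runs of closed peaks, with 905 peaks or 13.2% of those that closed. With TMM factors the numbers were 389 and 382. The longest opened runs had 8 peaks and the longest closed run 9.

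Of the 4 opened runs of 8 peaks, that with the largest mean change covered scaffold 240 from 207167 to 226806, with a mean log2 change of 0.99. Its peaks were weak to moderate. CTEL_peak_16101 (221699 to 222093) measured 59.0 and 83.7 units in the gastrula and 220.5 and 205 at stage 4tt, which is 1.58 on the log2 scale (standard error 0.19, limma adjusted p = 3.91e-05). CTEL_peak_16102 (224378 to 225300) measured 232 and 173, then 452 and 451 units, a change of 1.17 (standard error 0.14, limma adjusted p = 3.87e-05). The stage 4tt libraries lay above the gastrula libraries at all 8 peaks of the run. The changes ran from 0.52 at CTEL_peak_16096 to that of CTEL_peak_16101. The next lay on scaffold 567 from 122132 to 136680, with a mean change of 0.85. At its outer peaks, CTEL_peak_34337 (122132 to 123366) went from 173 and 186 to 426 and 463 units and CTEL_peak_34344 (136454 to 136680) from 67.2 and 57.6 to 166 and 181. The strongest peak of that run, CTEL_peak_34339 (127740 to 128970), changed least, from 1131 and 873 to 1315 and 1366 units (log2 change 0.43, standard error 0.12, limma adjusted p = 0.00965).

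The longest closed run held 9 peaks of scaffold 151 from 173054 to 192620, with a mean log2 change of −0.44. CTEL_peak_7637 (188431 to 190063) measured 5612 and 5846 units in the gastrula and 4589 and 4882 at stage 4tt. CTEL_peak_7636 (185751 to 187156) went from 4516 and 4167 to 3166 and 3274 units. CTEL_peak_7632 (178570 to 178820) fell most, by 0.85 on the log2 scale, from 1006 and 958 to 572 and 515 units. All 9 peaks had lower means at stage 8 than at stage 4tt, and CTEL_peak_7634 (180678 to 182144) stood at 3869 and 3912 units in the gastrula and at a mean of 396 at stage 8. The closed run of 7 peaks on scaffold 544, from 96628 to 113491, had a mean change of −0.72. In it CTEL_peak_33554 (105156 to 105807) went from 812 and 924 to 303 and 382 units, and CTEL_peak_33556 (109012 to 109183) from 218 and 264 to 104 and 103. The last peak of the run, CTEL_peak_33558 (111282 to 113491), had a mean of 1558 units at stage 8, above its 1278 and 1317 units in the gastrula. Of the 32 peaks in these 4 runs, 15 lost their call in 1 or more of 19 other fits, each with an absolute log2 change of at most 0.99. CTEL_peak_16096 lost it in the most fits, 7 of 19.

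Among 662 scaffolds with 20 or more peaks, scaffold 741 had the highest opened share, with 13 of 21 peaks opened and 0 closed. Scaffold 320 followed with 30 of 49 opened and 2 closed, and 41 of its peaks had a positive log2 change. Scaffold 583 had the highest closed share, with 11 of 23 closed and 0 opened. On scaffold 493, which was level with scaffold 593 in its share, 16 of 35 peaks closed and 2 opened, and on scaffold 593 16 of 35 closed and 0 opened. Over all peaks 21.7% opened and 14.7% closed, and scaffolds at the ends of such an order are extreme by their choice.

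The peaks with the largest rises among those with a mean of at least 50 units at both stages were near their lowest level in the gastrula and at their highest at stage 4tt. They were chosen by this rise, so that shape is partly given by the choice. CTEL_peak_24311 (scaffold 358, 72557 to 73070) measured 61.8 and 42.5 units in the gastrula and 487 and 534 at stage 4tt, a ratio of 9.79 between the means, or 3.29 on the log2 scale (standard error 0.21, limma adjusted p = 6.61e-07). It then stood at 194 and 197 units at stage 5 and at 72.6 and 60.4 at stage 8. Its 64-cell libraries held 97.2 and 101 units. CTEL_peak_7415 (scaffold 15, 349161 to 349408) went from 60.4 and 42.5 to 431 and 415 units, a log2 change of 3.04 (standard error 0.23, limma adjusted p = 1.42e-06). CTEL_peak_44624 (scaffold 909, 43071 to 44010) went from 139 and 85.8 to 654 and 745 units, and held 377 and 376 units at stage 8.

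Replicates set 2 of these 8 rises apart. CTEL_peak_23336 (scaffold 34, 462810 to 463829) measured 69.9 and 73.5 units in the gastrula but 750.0 and 302 at stage 4tt, and its log2 change was 2.72 (standard error 0.45, limma adjusted p = 0.00235). CTEL_peak_7850 (scaffold 15361, 148 to 685) held 26.1 and 87.6 units, or 19 and 70 reads, in the gastrula and 266 and 306 at stage 4tt (log2 change 2.55, standard error 0.41, limma adjusted p = 0.000549). It stood at 40.6 and 42.8 units at stage 8 and is the only consensus peak of its scaffold. The remaining 3 rises, CTEL_peak_25561, CTEL_peak_1821 and CTEL_peak_1406, had log2 changes between 2.60 and 2.71. All 8 had lower means at stage 8 than at stage 4tt, which is partly given by their choice for a high stage 4tt value.

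The largest falls included some of the strongest peaks of the table. They too were chosen by the change, so a high gastrula value is partly given by the choice. CTEL_peak_15320 (scaffold 2314, 8870 to 10030), which ranked 58 of all peaks by strength, measured 35090.0 and 30411 units in the gastrula and 5205 and 2932 at stage 4tt, a log2 change of −3.06 (standard error 0.30, limma adjusted p = 0.00108). It held 7164 and 6533 units in the 64-cell embryo and between 4834 and 6314 in the 4 later libraries, so the gastrula libraries alone stood high. CTEL_peak_29951 (scaffold 46093, 35 to 993) had the same course, with 4806 and 4362 units at the 64-cell stage, 24741 and 13381 in the gastrula, then 2719 and 2069.7 at stage 4tt. Its gastrula replicates differed widely (log2 change −2.94, standard error 0.34, limma adjusted p = 0.00195).

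Of the other 6 large falls, CTEL_peak_6562 (scaffold 142, 161068 to 162781) and CTEL_peak_21551 (scaffold 31287, 227 to 1251) were also high in the gastrula alone. The former measured 659 and 549.9 units there and at most 142 in any other library. The latter measured 435 and 334 units there and at most 66.1 elsewhere. CTEL_peak_21000 (scaffold 3054, 41 to 1680) went from 387 and 419.7 units to 62.2 and 48.9 at stage 4tt, but returned to 373 and 330.3 at stage 5 (log2 change to stage 4tt −2.85, standard error 0.19, limma adjusted p = 7.82e-07). CTEL_peak_43234 (scaffold 853, 23239 to 23420) held 469.9 and 471 units in the 64-cell embryo and 452 and 374 in the gastrula, then 48.7 and 81.9 at stage 4tt and at most 41.7 later, an early peak that did not return. CTEL_peak_46276 and CTEL_peak_40534 were lost less evenly, with standard errors of 0.44 and 0.52.

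**Figure D4:**
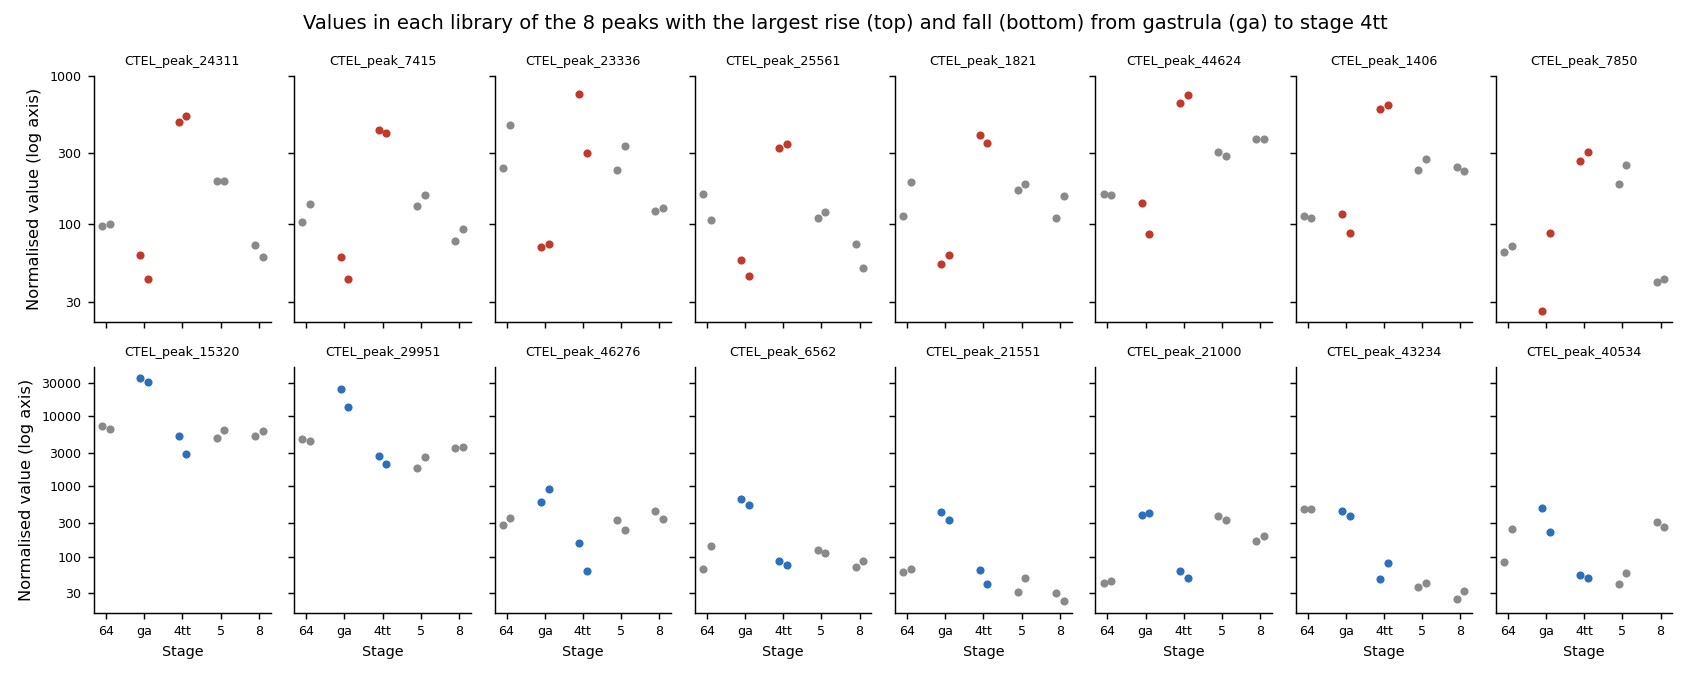
Normalised value in each library (vertical log axis) of the 8 peaks with the largest rise (top, red at the compared stages) and the 8 with the largest fall (bottom, blue) at the 64-cell stage (64), gastrula (ga), stage 4tt, stage 5 and stage 8 (horizontal axis, 2 points per stage). CTEL_peak_24311 goes from 61.8 and 42.5 units in the gastrula to 487 and 534 at stage 4tt, and CTEL_peak_15320 from 35090.0 and 30411 to 5205 and 2932.

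Within the strongest quintile the 4 largest rises were smaller than the 4 largest falls. This did not hold for the quintile as a whole, where the 5th and 95th percentiles of the log2 change were −0.51 and 0.62. CTEL_peak_2792 (scaffold 114, 86229 to 87352) rose most, from 327 and 394 to 1234 and 1013 units, a ratio of 3.12 between the means (log2 change 1.64, standard error 0.12, limma adjusted p = 1.09e-06). CTEL_peak_20632 (scaffold 30, 391394 to 392931) went from 472 and 320.5 to 1167 and 1212 units and went on to 3162 and 2965 at stage 8. CTEL_peak_8722 (scaffold 162, 220299 to 221764), in contrast, was highest at stage 4tt, with 1951 and 1790.0 units against 689 and 567 in the gastrula and 834 and 1017 at stage 8. The most even fall of the 4 was that of CTEL_peak_31046 (scaffold 488, 123972 to 125690), from 5528 and 5854 to 1068 and 924 units (log2 change −2.52, standard error 0.09, limma adjusted p = 7.11e-09). It held 4539 and 4902 units in the 64-cell embryo and at most 627 at the later stages. CTEL_peak_21097 (scaffold 307, 199682 to 201078) had the same order, with 3022 and 3274 units in the gastrula and 1209.5 and 812 at stage 4tt.

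Other strong peaks had nearly equal values at both stages. Among the 100 strongest, CTEL_peak_11467 (scaffold 19, 476431 to 480173) measured 8543 and 8598 units in the gastrula and 8395 and 8771 at stage 4tt, and CTEL_peak_23928 (scaffold 35, 684225 to 688270) 12037 and 11338, then 11860.0 and 11462. The standard error of each change was 0.05 on the log2 scale. The widest peaks that were called had small changes. CTEL_peak_25094, of 5759 bp (scaffold 37, 714967 to 720725), went from 811 and 871 to 1018 and 1038 units, and CTEL_peak_20690, of 5662 bp (scaffold 300, 40645 to 46306), from 5671 and 5666 to 4227 and 4301.

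Peaks called per library gave the same comparison without the table. The lists held 44351 and 44723 peaks in the gastrula and 48004 and 45978 at stage 4tt, covering between 25.6 and 26.3 Mb. Peaks found in both libraries of a stage formed 36818 regions in the gastrula and 38683 at stage 4tt. Of these, 7317 at stage 4tt overlapped no gastrula region and 5676 in the gastrula overlapped no stage 4tt region. Such regions were narrow and weakly enriched. Regions of stage 4tt only had a median width of 369 bp and a median fold enrichment of 2.52, against 629 bp and 3.53 for all stage 4tt regions. Regions of the gastrula only had medians of 386.5 bp and 2.54, against 664 bp and 3.58 for all gastrula regions. Both counts rested on the filter by a replicate. When a single list stood for stage 4tt, 12269 regions (without replicate 1) or 13496 (without replicate 2) were called at stage 4tt only, and for the gastrula 10969 or 10219 at that stage only.

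Regions gained at stage 4tt were found again later more often than regions lost. In both stage 8 lists, 57.3% of the stage 4tt regions absent from the gastrula were present, against 35.7% of the gastrula regions absent from stage 4tt. In both 64-cell lists the order was the reverse, with 20.4% and 35.6%. All these shares were below those of all regions, of which 78.1% at stage 4tt and 75.9% in the gastrula lay in both stage 8 lists and 61.3% and 65.7% in both 64-cell lists. Of the 4047 regions in neither gastrula list and 2800 in neither stage 4tt list, 75.2% and 57.3% overlapped a consensus peak. The consensus peaks under the former had a median log2 change of 0.71, and 67.4% of them opened and 1.70% closed. Under the latter the median was −0.66, with 62.1% closed and 1.82% opened. These lists and the table come from the same libraries. The region with the highest fold enrichment gained in this way lay on scaffold 2410 from 3835 to 4323, with 7.48 and 8.84 at stage 4tt. It overlapped no consensus peak and was called in no other list but that of 64-cell replicate 2. The next, on scaffold 44061 from 75 to 599, had 5.45 and 7.96. The highest of those lost lay on scaffold 409 from 220276 to 221100, with 8.30 and 8.05 in the gastrula, and was otherwise called in both 64-cell libraries only. On scaffold 20781, from 604 to 1585, the fold enrichment was 7.08 and 8.24 in the gastrula, and CTEL_peak_13214 under it went from 771 and 839 to 210.1 and 172 units (log2 change −2.08, limma adjusted p = 1.60e-05).

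Closed peaks lay in all 4 lists more often than opened peaks did. Of the closed peaks, 61.8% lay in all 4 lists and 13.7% in both gastrula lists and no stage 4tt list. Of the opened peaks, 36.4% lay in all 4 lists, 18.9% in both stage 4tt lists and no gastrula list, and 28.0% in none of the 4, having entered the table through another stage. Over all peaks 48.3% lay in all 4 lists and 26.7% in none. Of the 22427 peaks in all 4 lists 16.4% opened and 18.8% closed. Of the 12374 peaks in none, 22.9% opened and 4.89% closed. The surplus of opened over closed peaks was thus found among the latter and not among the former. Among peaks that opened by 1 or more, 47.5% lay in the stage 4tt lists alone and 10.99% in all 4, whereas 50.9% of those that closed by 1 or more still lay in all 4. A large fall thus more often left a called peak behind than a large rise started from one. These sets were not compared at equal strength. Of 3496 peaks with fewer than 20 reads in each of the 4 libraries, 1146 also lay in all 4 lists.

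Where a region held exactly 1 peak in each of the 4 lists, which was so for 26151 regions, its summit, the position of highest signal, stayed in place. The median distance between summits was 27 and 25 bp between replicates and 29 to 31 bp between stages. Widths differed by a median absolute log2 ratio of 0.17 and 0.15 between replicates and of 0.21 to 0.23 between stages. Peaks that changed in value changed in width as well, though values and called widths come from the same libraries and are not independent. Of 2918 such regions over a single opened peak 75.1% were wider at stage 4tt, with median widths of 709 bp in the gastrula and 838 bp at stage 4tt. Of 3251 over a closed peak 19.8% were wider, with medians of 718.5 and 576 bp. Of 12298 over a peak that was not called 45.9% were wider. The fold enrichment of the caller was higher at stage 4tt in 90.3%, 34.5% and 69.4% of these 3 classes. The median log2 ratio of that fold was 0.11 over peaks not called, so the caller's scale and that of the table do not share a level.

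The earlier and later levels of the changed peaks differed between the directions. Of the opened peaks 28.0% lay in none of the 4 lists, against 8.85% of the closed. These entered the table through another stage, so a high level at other stages is partly given by that entry. They were not set apart here or in the steps below. Opened peaks had a low point in the gastrula. Their median log2(value + 1) was 8.59 in both 64-cell libraries, 8.00 and 7.86 in the gastrula, then 8.66 and 8.67 at stage 4tt, 8.93 and 8.92 at stage 5 and 9.11 and 9.19 at stage 8. Closed peaks had a high point there, with 8.59 and 8.61 in the 64-cell embryo, 8.85 in both gastrula libraries, 8.13 and 8.12 at stage 4tt, 8.28 and 8.30 at stage 5 and 8.08 and 8.12 at stage 8. Peaks without a call had medians of 8.25 and 8.26, 7.94 and 7.86, 7.91 in both, 8.28 in both, and 8.28 and 8.35 in this order. The steps into the gastrula and out of stage 4tt share libraries with the comparison, and a peak with a low gastrula value by error would show the same shape, so they are only set side by side. For opened peaks the median changes were −0.58 into the gastrula from the 64-cell embryo, 0.64 to stage 4tt and 0.20 from stage 4tt to stage 5. For closed peaks they were 0.46, −0.71 and 0.21, and for all peaks −0.08, 0.05 and 0.23. In that last step the sequencing batch changes too, and its effect cannot be told apart from that of development.

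**Figure D5:**
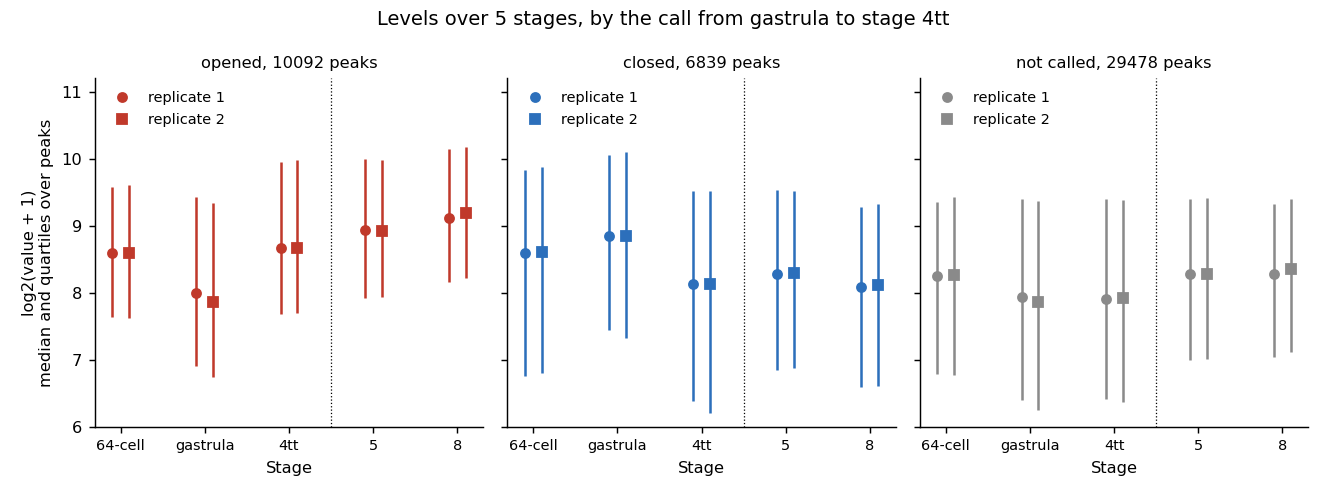
Median (points) and quartiles (lines) over peaks of log2(value + 1) in each library at 5 stages, for peaks opened (left), closed (middle) and not called (right) from gastrula to stage 4tt. The dotted line separates the sequencing batches. Opened peaks are lowest in the gastrula, at 8.00 and 7.86, and closed peaks highest there, at 8.85 in both libraries.

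Other steps share no library with that of gastrula and stage 4tt. All calls come from 1 fit over 10 libraries with 1 estimate of the spread per peak, so they are not independent. From stage 5 to stage 8, which both belong to the later batch, 29.3% of the opened peaks were higher at stage 8 and 12.3% lower (limma, adjusted p under 0.05), where 15.3% and 17.4% of all peaks were. Of the closed peaks 8.36% were higher at stage 8 and 31.3% lower. Both sets include the peaks in none of the 4 lists, which entered the table through another stage. The median log2 changes were 0.18 for opened peaks, −0.22 for closed peaks and −0.01 for peaks without a call. In the strongest quintile the shares in the same direction were 26.5% for opened and 55.6% for closed peaks, where 16.6% and 36.35% of all its peaks were higher and lower. With an absolute log2 change of 1 or more in both comparisons they were 9.00% and 11.5%, beside 2.57% and 3.45% of all peaks.

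From the 64-cell embryo to stage 8, which crosses the batches, 65.3% of the opened peaks were higher at stage 8 and 9.38% lower, beside 39.3% and 23% of all peaks, or 62.3% in either direction. Of the closed peaks 22.3% were higher and 44.6% lower. Of the 2223 peaks that closed by 1 or more, 28.7% were higher at stage 8 than in the 64-cell embryo and 29.8% lower, with a median change of 0.09 and quartiles of −1.02 and 1.19, against a median of 0.22 for all peaks. From the 64-cell embryo to stage 5, which also crosses the batches, 52.8% of the opened peaks were higher and 7.80% lower, and 29.1% of the closed peaks were higher and 34.9% lower, beside 35.4% and 16.9% of all peaks. The peaks that closed by 1 or more went the other way there, with 38.5% higher and 25.1% lower and a median change of 0.46, against 0.21 for all peaks. Single peaks went against the later trend. CTEL_peak_3051 (scaffold 11536, 503 to 1093) went from 616 and 383 units in the gastrula to 126 and 72.6 at stage 4tt and then to 1681 and 1563 at stage 5 (log2 change to stage 4tt −2.33, standard error 0.25, limma adjusted p = 5.50e-05). CTEL_peak_40534 (scaffold 756, 53787 to 54519) went from 493 and 221 to 54.3 and 48.9 units and stood at 307 and 265 at stage 8.

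The table held peaks with few or no reads. At 631 peaks all 4 libraries held 0 recovered reads, which allows up to 3 reads in each library, and at 3496 peaks each library held fewer than 20. Of the latter, 33 opened and 370 closed, both smaller shares than the 21.7% and 14.7% of all peaks. Of the same 3496 peaks, 1155 were alone on their scaffold. From 0 reads in both gastrula libraries 6 peaks reached 20 or more in both at stage 4tt, and 9 peaks went the other way. Such counts and limits cover counting error only.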

How the data were processed

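Per the study's methods, the authors trimmed reads with cutadapt, mapped them with NextGenMap, used SAMtools against duplicates and deepTools for the transposase offset, and called peaks per library with MACS2 2.2.7.1. The study annotated the Ensembl Metazoa assembly of the species, but the build used for mapping these reads is not given in the sources used here. The deposited lists hold, per peak, a score, a fold enrichment as a ratio to background, −log10 p-values and q-values, and a summit offset. The deposited table holds 1 normalised signal value per consensus peak and library, built by the authors with DiffBind and DESeq2. Before that step they kept peaks reproducible between replicates (irreproducible discovery rate) and removed those in repeats. Its starts count from 0 and are printed from 1.

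Whole reads were recovered from the signal values with a smooth step per library (running median over 41 peaks, 14 rounds, tolerance 0.1 reads). In all libraries 99.6% of values of 51 to 200 reads, 97.0% of 201 to 400 and 85.7% of all came out whole. They serve as depth and for the count tests, and intervals or floors from them cover counting error only. On log2(value + 1), limma 3.58.1 in R 4.3.3 (trend, robust, all 10 libraries in 1 fit, two-sided, Benjamini-Hochberg over 46409 peaks) gave the calls (adjusted p under 0.05). The study used DESeq2 with the same threshold for consecutive stages, and DESeq2 on recovered reads is an alternative here. Simulated data for this comparison held 46409 peaks with a dispersion of 0.01. There limma called 50.7% of peaks changed 1.5-fold, 100% changed 2-fold and 4-fold, and 0.013% of unchanged peaks. The changed peaks were drawn only from those at or above the median value, so these shares do not cover weak peaks. Lists were compared with bedtools 2.31.1 (overlap of 1 base or more).

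Alternatives were another pseudocount, a filter on low values, TMM, quantile normalization, fewer libraries, a replicate block, edgeR 4.0.16 and DESeq2 1.42.0 on recovered reads, each library left out, and other classes, gaps and thresholds. The named peaks are the 8 largest rises and falls with non-overlapping libraries and a mean of at least 50 units at both stages, the 4 largest of each in the strongest quintile, the 2 least changed of the 100 strongest, the 2 longest runs and extreme scaffolds of each direction, peaks that reversed by stage 8, the widest called peaks, and the 2 regions of highest fold enrichment in 1 stage's lists only. Classes, rules and comparisons were chosen with earlier results of these data known.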

Additional observations from a re-analysis of the deposited data

Results flagged for a closer look

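Signal was called in places that the comparison of consensus peaks does not use. Of 30844 regions called in all 4 lists of the gastrula and stage 4tt, 7780 (25.2%) overlapped no consensus peak. Their median fold enrichment was 4.15, against 3.93 for those over a consensus peak. Before building the consensus, the authors kept only peaks reproducible between replicates and removed those in repeats. Whether these regions were dropped at those steps was not tested.

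Of the 631 consensus peaks with 0 recovered reads in the 4 libraries, 205 overlapped a called peak in all 4 lists. Of the 3496 peaks with fewer than 20 reads in each library, 1146 did so. The table and the lists thus give opposite answers there.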

How the results depend on the processing

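The numbers of opened and closed peaks stayed within 1.5 times of those reported under every change of scaling, filter, pseudocount, tool and library set, and without peaks alone on their scaffold (chosen after seeing the data). They were 1911 and 2223 at an absolute log2 change of 1 or more and 6358 and 4065 at an adjusted p under 0.01. Leaving out 1 library at a time gave 6808 to 11390 opened and 4674 to 7837 closed, with the closed count falling to 5113 and the opened share of calls rising to 65.4% without gastrula replicate 1. Replicate numbers did not pair the libraries (correlation of deviations 0.02 between the 2 stages), and a replicate block gave 10011 opened and 6743 closed.

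With TMM factors 6.36% of the weakest strength quintile opened and 19.3% closed, against 20.3% and 21.9% of the strongest. For width these shares were 14.8% and 14.6% in the narrowest and 24.1% and 23.0% in the widest quintile. For spacing they were 18.9% and 21.1% under 500 bp, 14.2% and 15.3% at 10000 bp or more and 5.76% and 21.9% alone on a scaffold. In the strongest quintile closing thus exceeded opening with these factors. DESeq2 gave 5.18% opened and 12.98% closed in the weakest quintile, and 13.8% and 9.86% in the narrowest. Strength by the other 6 libraries gave 19.0% closed in the weakest and 30.4% opened and 15.3% closed in the strongest quintile, and without lone peaks, chosen after seeing the data, 8.50% of the weakest opened. Within the middle strength quintile 18.2% of the narrowest peaks closed, 25.1% opened under 500 bp, 26.9% opened and 10.3% closed at 10000 bp or more, and 17.3% opened and 24.7% closed alone on a scaffold, so the lower opened share of widely spaced peaks was not found there.

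Where both neighbours were called, 85.6% and 57.1% agreed in the closest and farthest class. Runs numbered 227 opened and 128 closed with gaps of at most 2000 bp, and 382 closed with TMM factors. The share of opened peaks that were higher at stage 8 than at stage 5 was 9.00% at a log2 change of 1 or more in both, 39.9% with each comparison fitted on its own 4 libraries (23.7% of all peaks) and 26.5% in the strongest quintile (chosen after seeing the data). For closed peaks that were lower it was 11.5%, 42.7% (24.1% of all peaks) and 55.6%, and 32.7% with TMM factors (19.2% of all peaks). Leaving out a library gave 5575 to 13496 regions of stage 4tt only and 3975 to 10969 of the gastrula only. The cause of these shifts was not tested. Of 57 named peaks with a call, 15 lost it in 55 of 1083 fits (CTEL_peak_16096 with TMM factors, quantile normalization, 4 or 6 libraries, or without gastrula replicate 1 or 2 or stage 4tt replicate 2), all of them members of runs, and none changed direction. Between 45 and 57 were kept with 1 library left out. Weak peaks are limited by depth, at 15 to 23 reads per library in the median.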
